A study of Mus musculus with 9 samples.

Results

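The genes of the proteasome were followed across 9 expression arrays of mouse KSL cells, the c-Kit+/Sca-1+/Lin-/IL7Ra- fraction of bone marrow that holds blood stem cells and early multipotent progenitors. The set was taken by name, as every gene whose symbol starts with Psm, then a letter from a to e, then a digit. That rule found 43 of the 12393 genes measured. Of these, 41 are subunits, activators or assembly chaperones of the proteasome. The other 2, Psmc3ip, a factor of meiotic recombination, and Psme3ip1, a partner protein of an activator, match the pattern without being subunits; they stay in the counts. The probe set of Psme2 is annotated to Psme2 and Psme2b together, so Psme2 has no value here.

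All mice had a C57BL/6 background, and each of the 3 groups had 3 biological replicates with 1 array each. Control mice carried Runx1 floxed/floxed without MxCre, and Runx1KO mice carried the same floxed alleles with MxCre+/-. Cells of both were sorted 3 months after poly IC, a double-stranded RNA mimic that induces interferon and with it the Mx promoter that drives Cre. RUNX1 is a transcription factor of blood development. In the third group, cells expressed from a retroviral vector a RUNX1 fragment that the labels write as RUNX1(41-214), and were sorted 4 months after transduction/transplantation. The labels of this group name no poly IC, and no transplanted cells with an empty vector were among the 9 arrays, so effects of the fragment, of the vector, of transplantation and of poly IC cannot be told apart. Nothing in the labels says whether a replicate is 1 animal or a pool.

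The proteasome is the protease of the cytosol and nucleus that degrades proteins tagged with ubiquitin. Its core is a barrel of alpha rings, encoded by Psma genes, around beta rings, encoded by Psmb genes, and the proteolytic sites sit on the beta subunits Psmb5, Psmb6 and Psmb7. In many blood cells, and elsewhere after interferon gamma, these are replaced by Psmb8, Psmb9 and Psmb10, which form the immunoproteasome and shape the peptides shown on MHC class I. A regulatory particle caps the core: a ring of ATPases (Psmc genes) unfolds the substrate, and the non-ATPase subunits (Psmd genes) bind and remove ubiquitin. Psme genes encode other activators. Low proteasome output is coupled to higher subunit transcription through Nfe2l1, and blood stem cells are known to keep protein synthesis and turnover under tight control.

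Because genes of this complex are often regulated together at their promoters, the bases just upstream of RefSeq gene starts (GRCm38.p6) were searched on both strands for 6 short motifs, and 4 windows are shown to place the matches. A window of 250 bases before the start was present for 36 of the 43 genes (39 windows); Psma8, Psmb1, Psmb2, Psmb7, Psmc3, Psmd3 and Psmd7 had none. Psmb8 and Psmb9 are shown as the immunoproteasome pair, Psmb5 as the constitutive subunit that Psmb8 replaces, and Psmc1 as an ATPase gene that is highest on the control arrays below. Each is printed 5′ to 3′ on the strand of its gene and ends at the base before the start, with the matched letters in capitals.
Psmb9 (chr17:34187331-34187555, minus strand, the 225 bases up to Tap1, which is read in the opposite direction): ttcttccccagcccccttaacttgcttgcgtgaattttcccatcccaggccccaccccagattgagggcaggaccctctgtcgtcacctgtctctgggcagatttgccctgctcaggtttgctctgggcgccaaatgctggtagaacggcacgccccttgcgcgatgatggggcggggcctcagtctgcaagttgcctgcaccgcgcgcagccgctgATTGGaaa
Psmb8 (chr17:34197945-34198194, plus strand): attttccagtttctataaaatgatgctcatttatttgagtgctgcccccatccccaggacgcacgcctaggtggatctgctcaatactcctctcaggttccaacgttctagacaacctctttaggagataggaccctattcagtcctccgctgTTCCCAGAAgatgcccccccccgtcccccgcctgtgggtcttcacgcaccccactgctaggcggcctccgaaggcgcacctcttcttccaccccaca
Psmb5 (chr14:54617996-54618245, minus strand): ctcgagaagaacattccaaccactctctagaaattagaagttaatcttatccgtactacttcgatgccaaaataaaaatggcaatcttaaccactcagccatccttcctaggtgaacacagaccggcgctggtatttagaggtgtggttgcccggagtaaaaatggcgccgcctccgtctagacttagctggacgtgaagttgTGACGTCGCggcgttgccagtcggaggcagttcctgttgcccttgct
Psmc1 (chr12:100109952-100110201, plus strand): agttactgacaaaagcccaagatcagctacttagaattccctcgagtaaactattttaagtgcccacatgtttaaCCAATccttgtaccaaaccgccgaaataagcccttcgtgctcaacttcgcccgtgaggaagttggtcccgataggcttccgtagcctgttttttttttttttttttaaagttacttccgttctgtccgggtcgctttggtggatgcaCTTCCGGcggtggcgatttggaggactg

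In these windows the capitals mark a CCAAT box (CCAAT, read here on the other strand) in Psmb9, a gamma-activated site (TTCNNNGAA) in Psmb8, the core of an antioxidant response element (TGACNNNGC) in Psmb5, and a CCAAT box with an ETS site (CCGGAAG, on the other strand) in Psmc1. The printed matches do not overlap each other. Over the whole set, the ETS site was matched in 12 of 36 genes (33.3%), against 6.91% of all 32851 windows of the reference table. The genes with it included 3 of the ATPase ring (Psmc1, Psmc2 and Psmc6). The CCAAT box was matched in 15 genes (41.7% against 33.8%), the kappa B core (GGGA, any 4 bases, CC) in 10 (27.8% against 17.6%) and the antioxidant response core in 5 (13.9% against 10.2%). The interferon-stimulated response core (GAAA, any 2 bases, GAAA) was matched in 3 genes (8.33% against 2.98%), which were Psmb3, Psmd4 and Psmd9 and no immunoproteasome gene, and the gamma-activated site was matched in Psmb8 alone (2.78% against 7.02%). A gene counts as matched if any of its windows holds the letters, matches of different motifs may overlap, and base composition was not equalised between the set and all windows. A match is a description of these letters and shows no binding.

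Signals are array intensities. Unless stated otherwise, log2 values and fold changes of genes are of quantile normalized log2(signal + 16) of the brightest probe set of a gene. Signals of sort and lineage marker genes, their sums and the Gapdh ratios are taken from linear signals before normalization, so the brightness of an array enters the signals and sums. Levels of different genes are not compared, since probe sets differ in response. The array medians ran from 124.95 to 147.2 before normalization. Kit, which the sort selects, had signals of 1981 to 2567 in control, 2795 to 3491 in Runx1KO and 2914 to 3783 in RUNX1(41-214). In the test described below, Kit passed as higher in RUNX1(41-214) than in control. The 7 measured stem and multipotent genes of 8 listed summed to 12762 to 15700, 14450 to 16168 and 13309 to 15163 in the same order. Of these, 1 passed as lower in RUNX1(41-214) against control and 1 against Runx1KO, where 4.28% and 1.36% of all genes passed. Signals of the lineage genes Cd3e, Cd4, Cd8a and Itgam stayed at or below 63.7, and Ly6a was not analysed here. Il7r, which the sort excludes at the cell surface, ran from 24.6 to 1400, and the 5 measured genes of the 8 excluded by the gate summed to 343 to 1482 in control, 447 to 1275 in Runx1KO and 129 to 131 in RUNX1(41-214). On 2 arrays, control replicate 2 and Runx1KO replicate 3, the log2 ratio of 3′ to 5′ Gapdh probe sets was 1.85 and 2.13, against 0.98 to 1.29 on the other 7. These 2 arrays were also the extremes of the proteasome set: 35 of the 43 genes lay above their own mean over the 9 arrays on control replicate 2 and 9 of 43 on Runx1KO replicate 3, where the shares of all genes were 50.6% and 49.2%. The next highest was RUNX1(41-214) replicate 3, with 31 of 43 above and a Gapdh ratio of 0.98, the lowest of the 9. Without quantile normalization the counts were 33 and 6 on the first 2, and 36, 37 and 30 on the RUNX1(41-214) arrays, where 68.3%, 68.9% and 47.1% of all genes lay above their mean. Some results below are given also without the 2 arrays of high ratio, and the part of RNA quality in them was not tested. In sorted bulk RNA, fewer cells of a type and less RNA per cell cannot be told apart.

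**Figure D1:**
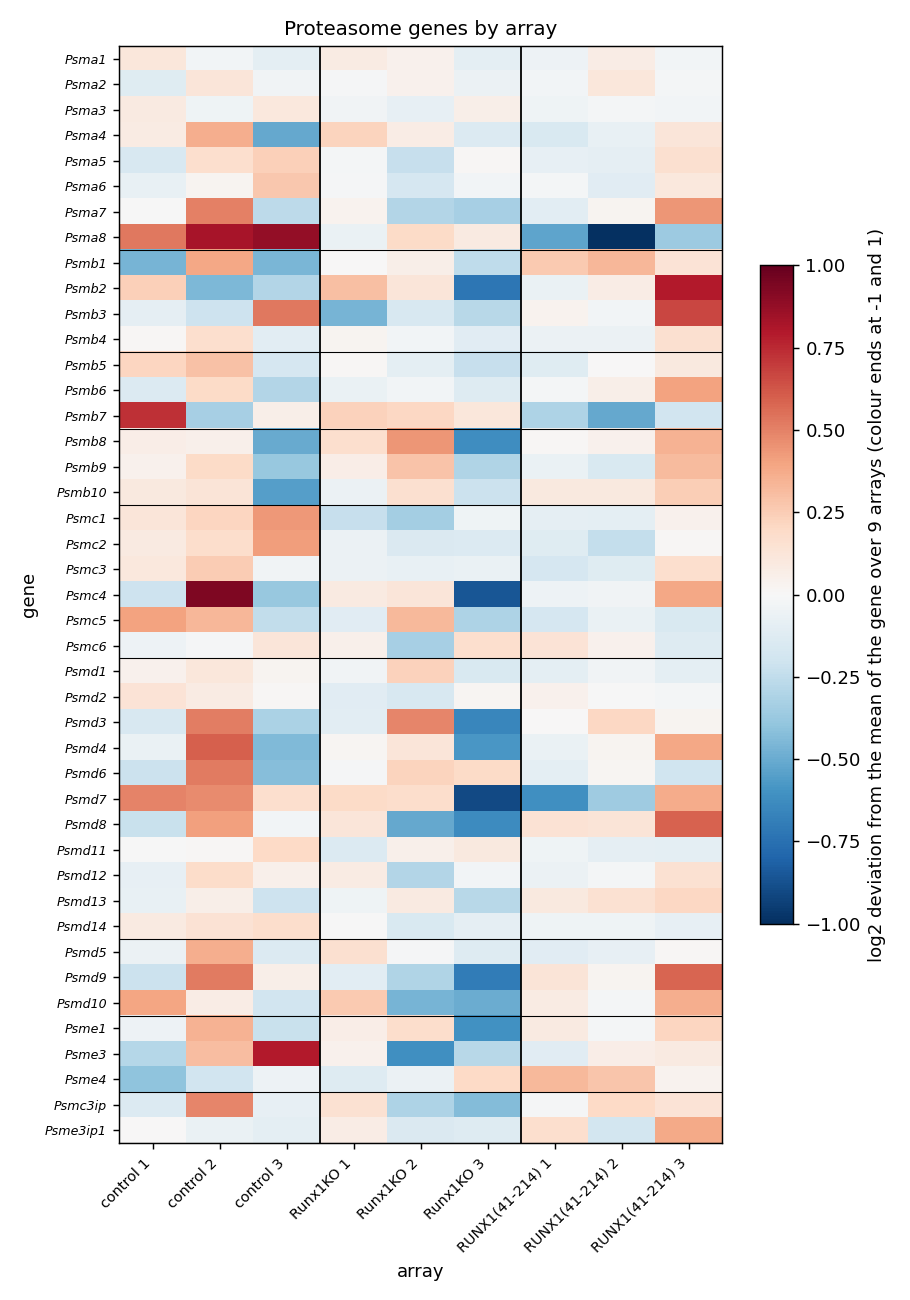
Deviation of each of the 43 genes (rows, grouped by role and separated by thin lines) from its own mean over the 9 arrays (columns, by group and replicate), in log2 units, red above and blue below, with the colour ending at -1 and 1. Control replicate 2 has 35 of 43 genes above their mean and Runx1KO replicate 3 has 9, while Psma8 is the row that steps down from control to RUNX1(41-214).

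Taken as a set, proteasome genes differed little between the groups, and 1 of them, Psma8, passed the test. In Runx1KO against control, 0 of 43 passed in the limma fit (adjusted p under 0.05 over all 12393 genes), where 0.347% of all genes passed; 4 had an unadjusted p under 0.05 (9.3%, against 7.22% of all genes), and all 4 were lower. In RUNX1(41-214) against control, 1 of 43 passed, where 4.28% of all genes did, and 4 had an unadjusted p under 0.05 (9.3% against 15.5%). In RUNX1(41-214) against Runx1KO, 0 of 43 passed, where 1.36% of all genes did, and 5 had an unadjusted p under 0.05 (11.6% against 10.6%). The F test over the 3 groups called Psma8 (adjusted p = 0.028) and no other of the 43, where 3.4% of all genes were called; that call was lost when any 1 of 6 arrays was left out (replicates 1 and 3 of control and 1 and 2 of either other group). The 95% interval of the log2 fold change stayed within a fold of 1.5 either way for 24, 24 and 25 of the 43 genes. These counts are for the 3 comparisons in that order, and the median half-width was 0.38. Small changes in the other genes were not detectable with 3 arrays a group. The intervals are not adjusted over all 12393 genes, so changes larger than 0.38 could also miss the threshold. Psmc1, at -0.46 in Runx1KO against control, had a limma adjusted p of 0.33.

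In Runx1KO against control more proteasome genes were lower than higher, except where both arrays of high Gapdh ratio were left out. With all 9 arrays, 31 of 43 genes were lower and 12 higher. The median log2 fold change was -0.13 against -0.00 for all genes, of which 50.8% were lower. Without control replicate 2 and Runx1KO replicate 3, 20 were lower and 23 higher, and the median was 0.01. For this set, those were the highest control array and the lowest Runx1KO array, so leaving both out raises the difference by selection. That removal therefore cannot decide the direction. In the other alternatives 24 to 41 of the 43 were lower, with 24 where Runx1KO replicate 3 alone was left out. Without control replicate 3, 41 were lower and 2 higher, with a median of -0.15. In RUNX1(41-214) against control, 23 were lower and 20 higher, with a median of -0.01 against 0.02 for all genes. Against Runx1KO, 31 were higher and 12 lower in RUNX1(41-214), with a median of 0.10, and without the 2 arrays 27 were higher and 16 lower, with a median of 0.04. These comparisons share arrays and are not independent of each other. Without quantile normalization the median of all genes rose to 0.12 in RUNX1(41-214) against control and 0.11 against Runx1KO, and 9 and 3 of the 43 genes then counted as lower; relative to all genes, the median of the set was -0.00 and 0.10.

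By the count of arrays that do not overlap, which more genes meet than the test, 0 of 43 genes were higher in all Runx1KO than in all control arrays (5.34% of all genes were). In the same comparison 5 were lower (5.2% of all genes). In RUNX1(41-214) against control the counts were 2 higher (10% of all genes) and 6 lower (10.2%), and against Runx1KO they were 6 higher (9.67%) and 2 lower (9.13%). All control arrays lay above all 6 other arrays for 4 of the 43 genes, Psma8, Psmc1, Psmc2 and Psmd14, and for 2.68% of all genes. The spread between replicates was close to that of other genes: the median within-group SD was 0.25 for the 43 and 0.24 for all genes, and ran from 0.05 for Psmd14 to 0.54 for Psmc4.

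**Figure D2:**
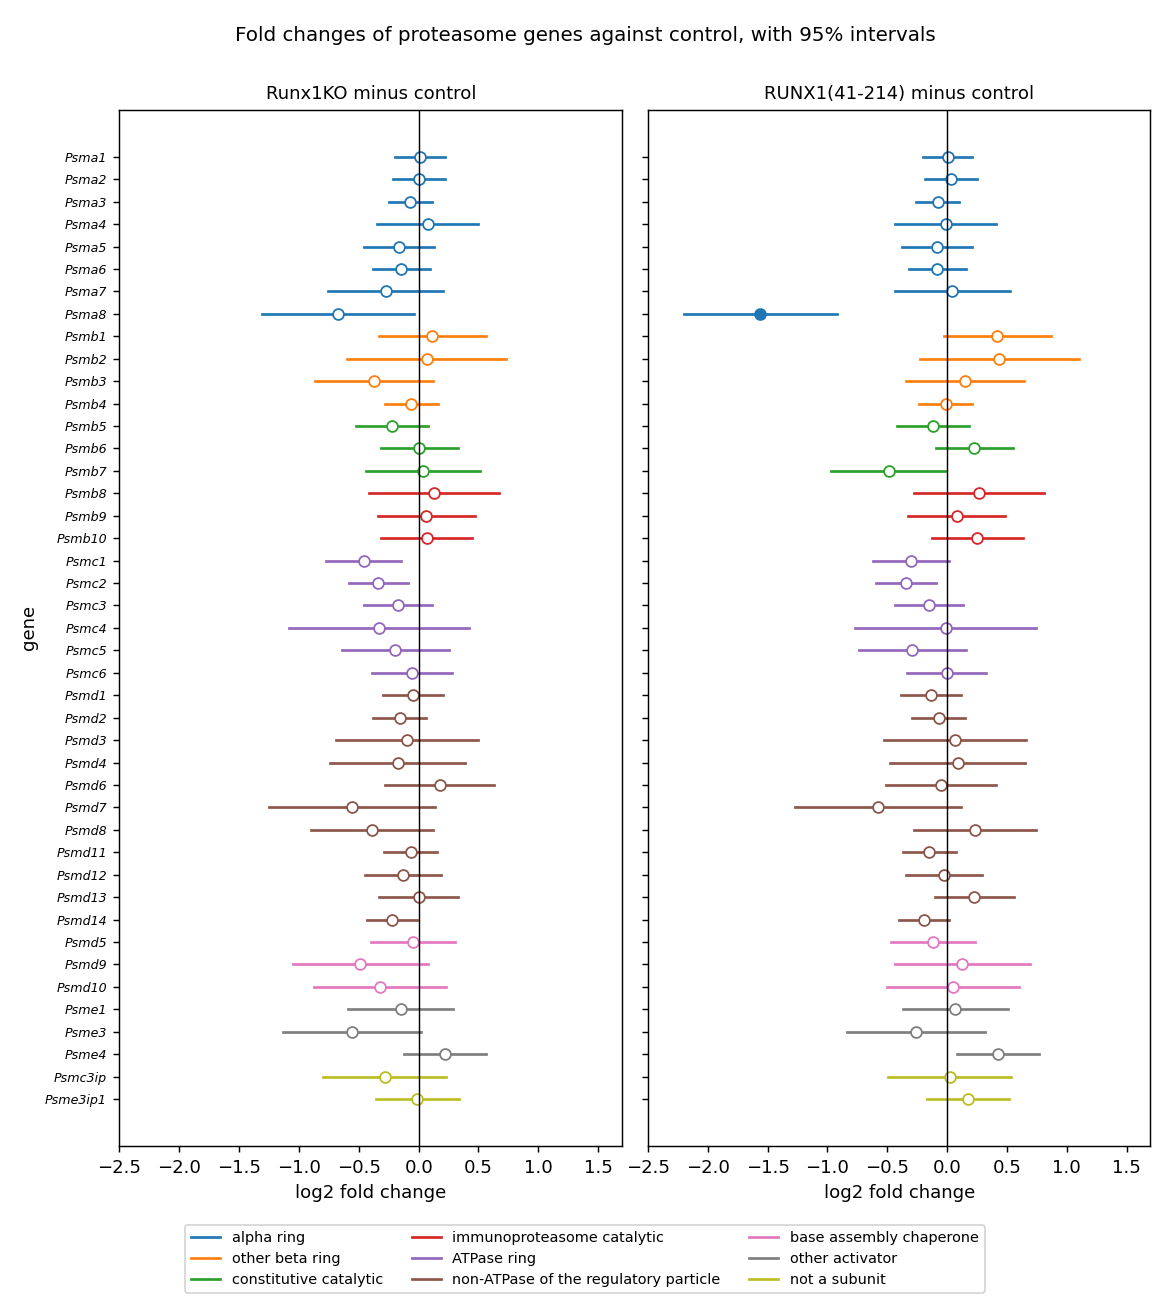
Log2 fold change of each of the 43 genes against control with its 95% interval, in Runx1KO (left) and RUNX1(41-214) (right), coloured by role; a filled point passed the test. The only filled point is Psma8 in RUNX1(41-214), at -1.56, and 24 of the 43 intervals in each panel lie within a fold of 1.5.

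Among the alpha ring genes, Psma8 fell in RUNX1(41-214) cells. Psma8 encodes the alternative alpha subunit that takes the place of Psma7 in the proteasomes of male germ cells. Its log2 signal was 8.94, 9.24 and 9.29 on the control arrays, 8.35, 8.60 and 8.50 on the Runx1KO arrays, and 7.88, 6.85 and 8.05 on the RUNX1(41-214) arrays. The 3 groups formed steps without overlap, and the lowest array was RUNX1(41-214) replicate 2. The log2 fold change in RUNX1(41-214) against control was -1.56 (SE 0.29, limma adjusted p = 0.0098, lower in 3 of 3 arrays), and it passed in all 20 alternatives run, from -1.79 to -1.19, with adjusted p from 0.0061 to 0.046. Several of these alternatives leave the fold change as it is and can move only its p. In Runx1KO against control it was -0.67 (adjusted p = 0.65), and in RUNX1(41-214) against Runx1KO -0.89 (adjusted p = 0.24), so neither of those steps passed. The raw signal of its only probe set ran from 89.3 to 613 over the 9 arrays. This probe set is named only by its annotation, and whether it also takes up RNA of the closely related Psma7 was not tested.

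The change of Psma8 was not shared by Psma7, the subunit of the same position in somatic cells. Psma7 read 10.11, 10.62 and 9.85 on the control arrays, 10.15, 9.82 and 9.79 in Runx1KO, and 10.02, 10.14 and 10.56 in RUNX1(41-214). The groups overlapped, and the fold changes against control were -0.28 (SE 0.22) and 0.04 (SE 0.22), with limma adjusted p of 0.88 and 0.96, and 0.00 and 0.26 without the 2 arrays of high Gapdh ratio. The other 6 alpha genes, Psma1 to Psma6, which form the gated end plates of the barrel, lay between -0.16 and 0.07 in Runx1KO and between -0.08 and 0.03 in RUNX1(41-214). Of these, Psma4 had the largest positive value in Runx1KO, at 0.07, with 11.50, 11.78 and 10.90 on the control arrays, 11.63, 11.49 and 11.28 in Runx1KO, and 11.26, 11.34 and 11.54 in RUNX1(41-214). Its control arrays spanned more than the other groups, all 3 groups overlapped, and its value in Runx1KO was 0.36 without the 2 arrays.

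**Figure D3:**
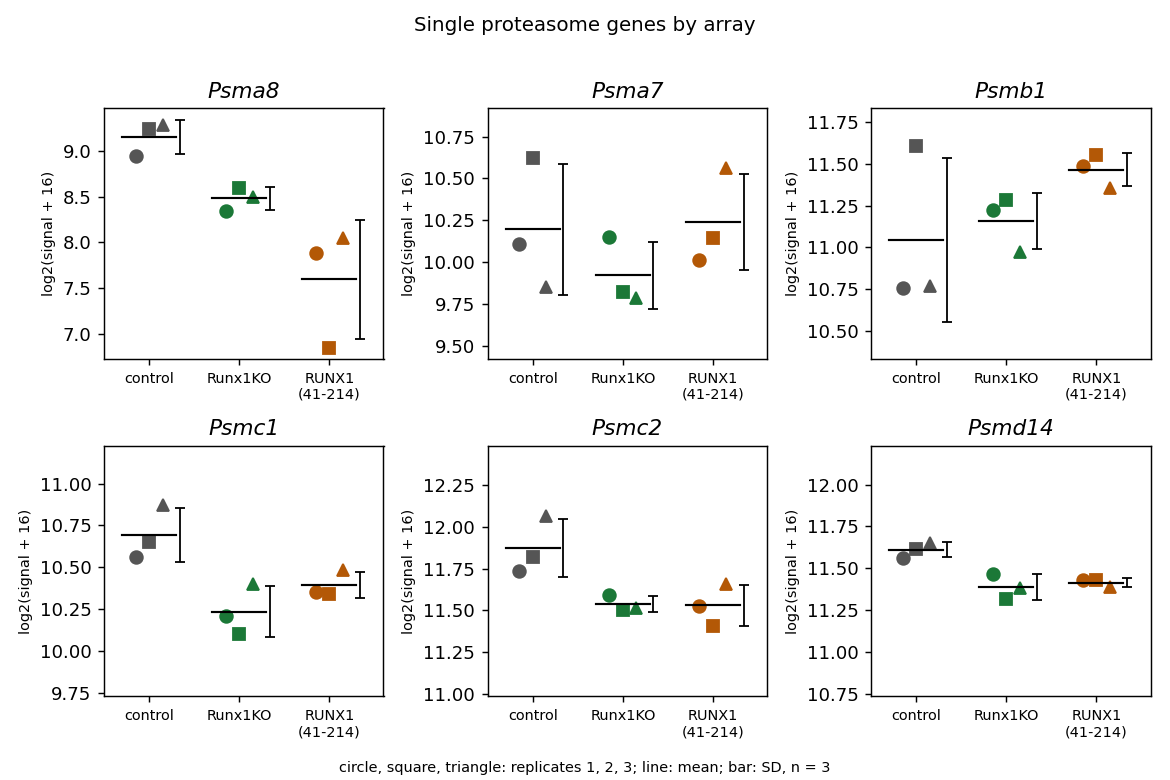
Log2(signal + 16) of 6 genes by group, with circle, square and triangle for replicates 1, 2 and 3, a line for the mean and a bar for the SD (n = 3); each panel has its own axis. Psma8 steps from a range of 8.94 to 9.29 in control to 6.85 to 8.05 in RUNX1(41-214), Psma7 does not, control replicate 2 stands apart for Psmb1, and all control arrays lie above the 6 others for Psmc1, Psmc2 and Psmd14.

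None of the 3 immunoproteasome genes passed the test in any comparison, and all 3 were seen in every group. Psmb8, whose product carries the chymotrypsin-like site of the immunoproteasome, read 11.16, 11.14 and 10.59 on the control arrays, 11.26, 11.54 and 10.47 in Runx1KO, and 11.10, 11.14 and 11.44 in RUNX1(41-214). Psmb9, the caspase-like position, read 11.71, 11.85 and 11.28 in control, 11.73, 11.94 and 11.36 in Runx1KO, and 11.60, 11.51 and 11.97 in RUNX1(41-214). Psmb10, the trypsin-like position, read 11.43, 11.46 and 10.78 in control, 11.27, 11.49 and 11.11 in Runx1KO, and 11.43, 11.43 and 11.58 in RUNX1(41-214). For each of them, control replicate 3 and Runx1KO replicate 3 were the lowest arrays of their groups and RUNX1(41-214) replicate 3 the highest of its group, and the groups overlapped. The log2 fold changes in Runx1KO were 0.13, 0.06 and 0.07 for Psmb8, Psmb9 and Psmb10 (SE 0.25, 0.19 and 0.18), and those in RUNX1(41-214) were 0.26, 0.08 and 0.25, with limma adjusted p between 0.56 and 0.99. The intervals ran from -0.42 to 0.67 for Psmb8 in Runx1KO and from -0.28 to 0.81 in RUNX1(41-214). Without control replicate 3, the values of all 3 in Runx1KO turned negative (median -0.10), and in RUNX1(41-214) the median went from 0.25 to 0.03. Without Runx1KO replicate 2 they were also negative in Runx1KO (median -0.07). In the other direction, the median in Runx1KO was 0.22 without Runx1KO replicate 3, and without both arrays of high Gapdh ratio the values were 0.52, 0.34 and 0.27.

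The 3 constitutive subunits that these replace did not pass either. Psmb5, the constitutive chymotrypsin-like subunit, read 11.57, 11.65 and 11.19 in control, 11.36, 11.26 and 11.12 in Runx1KO, and 11.24, 11.36 and 11.45 in RUNX1(41-214). Psmb6, the caspase-like subunit, read 11.26, 11.59 and 11.11 in control, 11.33, 11.37 and 11.28 in Runx1KO, and 11.38, 11.46 and 11.80 in RUNX1(41-214). Psmb7, the trypsin-like subunit, read 11.66, 10.59 and 10.99 in control, 11.16, 11.14 and 11.05 in Runx1KO, and 10.62, 10.41 and 10.74 in RUNX1(41-214). For Psmb7 all RUNX1(41-214) arrays lay below all Runx1KO arrays, whereas control replicate 2 lay within the RUNX1(41-214) range. The log2 fold changes in RUNX1(41-214) against control were -0.12 for Psmb5, 0.23 for Psmb6 and -0.49 for Psmb7, with limma adjusted p of 0.76, 0.53 and 0.31, and against Runx1KO that of Psmb7 was -0.52 (adjusted p = 0.41). Without the 2 arrays of high Gapdh ratio Psmb7 was at -0.73 against control (adjusted p = 0.054).

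Within an array, each immunoproteasome gene was set beside the constitutive gene of its position, and the change of this difference between groups was not alike for the 3 positions. The log2 difference of Psmb10 over Psmb7 was -0.23, 0.87 and -0.20 in control, 0.11, 0.35 and 0.07 in Runx1KO, and 0.80, 1.01 and 0.84 in RUNX1(41-214). The zero of this scale has no meaning, since 2 probe sets are involved, and only its change between arrays is read. Its mean was 0.74 higher in RUNX1(41-214) than in control, where the control SD was 0.63 and control replicate 2 lay within the RUNX1(41-214) range, and 0.71 higher than in Runx1KO, where the arrays did not overlap. Psmb8 over Psmb5 was -0.41, -0.51 and -0.60 in control, -0.11, 0.28 and -0.65 in Runx1KO, and -0.13, -0.23 and -0.01 in RUNX1(41-214). This was 0.38 higher in RUNX1(41-214) than in control, with no overlap and SDs of 0.11 and 0.09, and 0.35 higher in Runx1KO, where the arrays overlapped (SD 0.47). Psmb9 over Psmb6 was 0.44, 0.26 and 0.18 in control, 0.39, 0.57 and 0.08 in Runx1KO, and 0.22, 0.05 and 0.17 in RUNX1(41-214), with means 0.06 higher and 0.15 lower than control and overlapping arrays. No test was run on these differences.

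**Figure D4:**
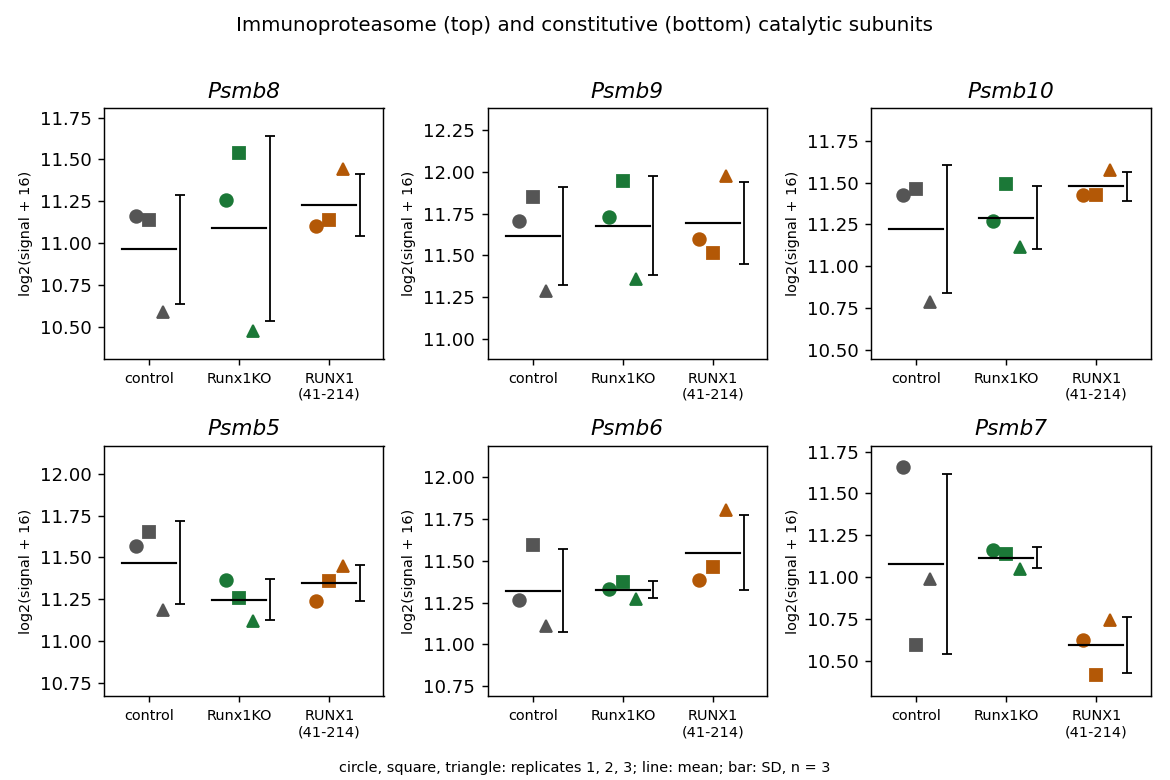
Log2(signal + 16) of the immunoproteasome genes Psmb8, Psmb9 and Psmb10 (top row) and of the constitutive genes Psmb5, Psmb6 and Psmb7 that they replace (bottom row), with circle, square and triangle for replicates 1, 2 and 3, a line for the mean and a bar for the SD (n = 3); each panel has its own axis. The top row has replicate 3 lowest in control and in Runx1KO, and Psmb7 is the panel in which the RUNX1(41-214) arrays, at 10.41 to 10.74, lie below the Runx1KO arrays.

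The 3 immunoproteasome genes moved together from array to array. Over the 9 arrays Pearson's r was 0.91 between Psmb8 and Psmb9, 0.83 between Psmb8 and Psmb10 and 0.83 between Psmb9 and Psmb10, while with Psmb7 it was -0.03, 0.03 and -0.18. With the other constitutive genes it was higher, at 0.50, 0.61 and 0.58 for Psmb5 and 0.60, 0.72 and 0.76 for Psmb6 (with Psmb8, Psmb9 and Psmb10 in that order). With Psme1, which encodes a subunit of the interferon-inducible activator, it was 0.84, 0.82 and 0.68. These are descriptions over 9 arrays that share groups and array quality. Tap1 and Tap2, the peptide transporter genes that lie beside Psmb9 and Psmb8, had log2 fold changes of -0.13 and 0.21 in Runx1KO and of 0.08 and 0.15 in RUNX1(41-214), with limma adjusted p of 0.77 or more. Tap1 read 10.48, 10.95 and 10.47 in control, 10.46, 10.78 and 10.27 in Runx1KO, and 10.72, 10.45 and 10.96 in RUNX1(41-214). Tap2 read 11.10, 11.06 and 10.43 in control, 10.97, 11.31 and 10.96 in Runx1KO, and 10.98, 11.06 and 11.01 in RUNX1(41-214), so control replicate 3 was the lowest array, as it was for Psmb9 and Psmb10. Pearson's r of Psmb8, Psmb9 and Psmb10 was 0.66, 0.79 and 0.62 with Tap1, and 0.70, 0.71 and 0.86 with Tap2. That of Psmb10 with Tap2 was above its r with Psmb8 and with Psmb9. Among 6195 genes above the median signal, the 5 with the highest r over the 9 arrays were Fam98c, G6pc3, Mov10, Mfsd10 and Dcxr for Psmb8 (0.97 to 0.94), Tcf3, Mtfmt, Flii, Tpm1 and Bcl7b for Psmb9 (0.98 to 0.93), and Ccndbp1, Tspan32, Adgrg1, Mfsd10 and Rab24 for Psmb10 (0.98 to 0.94). Mfsd10 was the gene on the lists of both Psmb8 and Psmb10. None of the 3 immunoproteasome genes was on these lists, so an r of this size is not particular to them.

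Genes of mature lineages, some of which express the immunoproteasome strongly, were read from 7 marker lists, with signals and sums taken before normalization. The summed signal of 6 measured B cell genes of 7 listed was 5704 to 6186 in control, 4217 to 8793 in Runx1KO and 1162 to 1492 in RUNX1(41-214), and Ighm alone ran from 577 to 7447, while Pax5 stayed at or below 11.3. That of 8 T and NK cell genes was 1200 to 1530, 531 to 1170 and 318 to 455 in the same order, and Cd3e stayed at or below 24.6. That of 11 monocyte, macrophage and dendritic cell genes was 6465 to 7848, 7676 to 10140 and 5529 to 6690, and C1qa was at or below 3. The 9 granulocyte genes summed to 8194 to 13672, 8580 to 14143 and 11544 to 14379, and the 5 measured erythroid genes of 7 listed to 303 to 2196, 288 to 869 and 631 to 1558. The 5 mast cell and basophil genes summed to 396 to 1248, 2517 to 3941 and 5008 to 5989, and 6 megakaryocyte genes to 2853 to 3623, 5631 to 7311 and 9088 to 11498. In Runx1KO against control, where 0.347% of all genes passed, 1 T and NK cell gene fell. There 1 mast cell and basophil gene and 3 megakaryocyte genes rose, and 0 genes of the other 4 lists passed. In RUNX1(41-214) against control, where 4.28% of all genes passed, 2 B cell, 3 T and NK cell and 3 monocyte, macrophage and dendritic cell genes fell. There 3 mast cell and basophil, 3 megakaryocyte and 2 erythroid genes rose, and 0 granulocyte genes passed. The part of these cells in the values of the proteasome genes was not tested.

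The remaining beta subunits are structural, and none of them passed. Psmb1 read 10.75, 11.61 and 10.77 in control, 11.22, 11.28 and 10.97 in Runx1KO, and 11.49, 11.55 and 11.36 in RUNX1(41-214). Control replicate 2, the control array of high Gapdh ratio, lay above the RUNX1(41-214) range and the other 2 control arrays below it. The fold change in RUNX1(41-214) against control was 0.42 (SE 0.20, limma adjusted p = 0.36). Without control replicate 2 it was 0.70 (adjusted p = 0.0120), and without both arrays of high ratio 0.70 (adjusted p = 0.0056), so that its call rests on that array. The other 2 probe sets of Psmb1, of lower signal, gave -0.12 and -0.19.

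Psmb2 had the largest positive value of this class in RUNX1(41-214), 0.43 (SE 0.30, limma adjusted p = 0.57), with 10.26, 9.58 and 9.73 in control, 10.32, 10.15 and 9.30 in Runx1KO, and 9.96, 10.09 and 10.82 in RUNX1(41-214). Its arrays spread over more than 1 log2 unit within Runx1KO, and the groups overlapped. Psmb3 had the lowest value in Runx1KO, -0.38 (SE 0.23, adjusted p = 0.82), with 10.59, 10.48 and 11.21 in control, 10.22, 10.52 and 10.41 in Runx1KO, and 10.72, 10.65 and 11.36 in RUNX1(41-214). In RUNX1(41-214) all its arrays lay above those of Runx1KO, by 0.52 on average (adjusted p = 0.43). Psmb4 moved little, with values against control of -0.06 and -0.01 and arrays between 11.95 and 12.22 in every group.

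In the ATPase ring all 6 genes had lower means than control in both comparisons, and none passed. These subunits use ATP to unfold substrates and open the core. The values ran from -0.46 to -0.06 in Runx1KO and from -0.34 to -0.00 in RUNX1(41-214). Under the alternatives 4 to 6 of the 6 were lower: in RUNX1(41-214) it was 4 without quantile normalization or with array weights, and in Runx1KO it was 4 without the 2 arrays of high Gapdh ratio. Psmc1 read 10.56, 10.65 and 10.87 in control, 10.21, 10.10 and 10.40 in Runx1KO, and 10.35, 10.34 and 10.48 in RUNX1(41-214). Its fold change was -0.46 in Runx1KO (SE 0.14, limma adjusted p = 0.33) and -0.30 in RUNX1(41-214) (SE 0.14, adjusted p = 0.35), and without the 2 arrays -0.56 and -0.32.

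Psmc2 read 11.73, 11.82 and 12.07 in control, 11.59, 11.51 and 11.51 in Runx1KO, and 11.52, 11.41 and 11.66 in RUNX1(41-214). As for Psmc1, every control array lay above all others. The fold changes were -0.34 in both comparisons against control (SE 0.11), with limma adjusted p of 0.40 and 0.14, and with array weights, which count the 2 arrays of high Gapdh ratio for less, the value in RUNX1(41-214) was -0.40 and passed (adjusted p = 0.0474). Array weights raised the calls over all genes in that comparison from 531 to 766. A second probe set of Psmc2 gave -0.25 and -0.50, also without overlap. Psmc6, at the other end of the ring's range, read 10.72, 10.76 and 10.88 in control, 10.81, 10.43 and 10.94 in Runx1KO, and 10.90, 10.81 and 10.64 in RUNX1(41-214), which gave -0.06 and -0.00. Psmc4 showed the weight of single arrays: it read 10.92 on control replicate 2 and 9.13 on Runx1KO replicate 3, against 9.60 to 10.37 on the other 7, and its value in Runx1KO turned from -0.33 to 0.40 without those 2 arrays.

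Among the 11 non-ATPase subunits of the regulatory particle, which receive and deubiquitinate substrates, 10 were lower in Runx1KO and 7 in RUNX1(41-214), and none passed. Without the 2 arrays of high Gapdh ratio 6 and 5 were lower, and without quantile normalization 9 and 2. Psmd14, the metalloprotease that removes ubiquitin chains during degradation, read 11.56, 11.62 and 11.65 in control, 11.47, 11.32 and 11.38 in Runx1KO, and 11.43, 11.43 and 11.39 in RUNX1(41-214). Its control arrays lay above all 6 others, and the differences were small, -0.22 and -0.20 (SE 0.10), with limma adjusted p of 0.65 and 0.37. Psmd7, a lid subunit that pairs with Psmd14, had the lowest values of the class, -0.56 and -0.58 (SE 0.32, adjusted p 0.80 and 0.44). It read 9.99, 9.97 and 9.66 in control, 9.68, 9.67 and 8.59 in Runx1KO, and 8.88, 9.14 and 9.87 in RUNX1(41-214), so that its low values came from 1 Runx1KO array and 2 RUNX1(41-214) arrays. Without the 2 arrays of high Gapdh ratio they were -0.15 and -0.53.

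Psmd8, another lid subunit, had the largest positive value of these 11 in RUNX1(41-214) against control, 0.24, and 0.63 against Runx1KO (SE 0.23, limma adjusted p = 0.33). It read 10.10, 10.73 and 10.29 in control, 10.44, 9.81 and 9.69 in Runx1KO, and 10.47, 10.45 and 10.91 in RUNX1(41-214), with no overlap between the last 2 groups. Psmd6 had the only positive value of the class in Runx1KO, 0.18 (SE 0.21), with 10.56, 11.30 and 10.35 in control, 10.77, 11.004 and 10.97 in Runx1KO, and 10.68, 10.80 and 10.58 in RUNX1(41-214). Control replicate 2 was again the highest array. A second probe set of Psmd6 gave -0.23 in Runx1KO. One of Psmd11 gave 0.35 there, where its brightest gave -0.06, so which gene was positive depends on the probe set. The scaffold subunits Psmd1 and Psmd2 were at -0.05 and -0.16 in Runx1KO and at -0.14 and -0.07 in RUNX1(41-214). The 3 chaperones that assemble the base of the particle, Psmd5, Psmd9 and Psmd10, were at -0.05, -0.49 and -0.32 in Runx1KO and at -0.12, 0.13 and 0.05 in RUNX1(41-214), and none passed. Without the 2 arrays of high Gapdh ratio those in Runx1KO were 0.18, -0.12 and -0.20, and those in RUNX1(41-214) 0.04, 0.33 and 0.04.

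Of the activators, Psme1 read 11.41, 11.81 and 11.24 in control, 11.52, 11.63 and 10.86 in Runx1KO, and 11.55, 11.44 and 11.68 in RUNX1(41-214). Its values were -0.15 and 0.07 (SE 0.20), and that in Runx1KO was 0.25 without the 2 arrays of high Gapdh ratio. Psme3, the nuclear activator, read 9.14, 9.73 and 10.21 in control, 9.46, 8.80 and 9.14 in Runx1KO, and 9.30, 9.48 and 9.51 in RUNX1(41-214). Its values were -0.56 (SE 0.26, limma adjusted p = 0.71) and -0.26, and its control arrays spread over more than 1 log2 unit. A second probe set of Psme3, nearly as bright, gave 0.51 in Runx1KO and -0.03 in RUNX1(41-214), so the direction in Runx1KO depends on the probe set. Psme4, an activator linked to chromatin and to the proteasomes of germ cells, read 10.002, 10.22 and 10.36 in control, 10.27, 10.35 and 10.60 in Runx1KO, and 10.73, 10.68 and 10.44 in RUNX1(41-214). All RUNX1(41-214) arrays lay above all control arrays, by 0.43 on average (SE 0.16, adjusted p = 0.19). The pattern matches that are no subunits, Psmc3ip and Psme3ip1, were at -0.28 and -0.01 in Runx1KO and at 0.02 and 0.18 in RUNX1(41-214).

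Where a gene had several probe sets, they did not always move alike. The 43 genes had 76 probe sets, and 19 genes had more than 1. The second brightest had the sign of the brightest in 11 of 19 genes in Runx1KO against control, in 13 in RUNX1(41-214) against control and in 11 in RUNX1(41-214) against Runx1KO. Some second probe sets had low signal, such as those of Psmc1, Psma1 and Psmd9 (mean log2 4.43, 5.42 and 5.86), where a sign says little. The same share over all genes was not counted. With all 22626 probe sets tested together, 1 of the 76 passed, that of Psma8 in RUNX1(41-214) against control. The share of all probe sets that passed is not given here, so this count has no background beside it.

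Genes around the proteasome were measured in 3 lists, and 0 of them passed in any comparison of the limma fit. Of 19 genes of proteasome assembly and regulation, 16 were measured (Adrm1, Ddi2 and Paaf1 were not analysed here). With an unadjusted p under 0.05 there were 0 in Runx1KO against control, 1 in RUNX1(41-214) against control and 3 in RUNX1(41-214) against Runx1KO, where the shares of all genes were 7.22%, 15.5% and 10.6%. Psmg4, an assembly chaperone of the core, had the lowest p in RUNX1(41-214) against control, at 0.72 (SE 0.26, adjusted p = 0.20). It read 9.05, 9.07 and 8.62 in control, 9.33, 9.13 and 8.32 in Runx1KO, and 9.44, 9.62 and 9.84 in RUNX1(41-214), with the last group above all other arrays. Next was Nfe2l2, a transcription factor of the oxidative stress response, at -0.26 (adjusted p = 0.49), and against Runx1KO Nfe2l2 had the lowest p, at -0.44 (adjusted p = 0.28), followed by Psmg4 at 0.70 (adjusted p = 0.34). In Runx1KO against control the lowest p were those of Psmg3, another core chaperone, at -0.47 (adjusted p = 0.76), and Uchl5, a deubiquitinase of the regulatory particle, at -0.27 (adjusted p = 0.82). Nfe2l1, which drives proteasome genes when degradation falls short, was at 0.04 and -0.05 against control.

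Of 17 genes of ubiquitin supply and delivery, 10 were measured. An unadjusted p under 0.05 was found for 0, 3 and 1 of them in the 3 comparisons. These are 0%, 30% and 10%, against 7.22%, 15.5% and 10.6% of all genes. The 3 in RUNX1(41-214) against control were lower. Zfand2a, a stress-inducible partner of the regulatory particle, was at -0.61 (SE 0.21, limma adjusted p = 0.15), with 9.95, 9.35 and 9.80 in control, 9.67, 9.79 and 9.36 in Runx1KO, and 8.96, 9.06 and 9.27 in RUNX1(41-214). Its RUNX1(41-214) arrays lay below all others, and against Runx1KO it was at -0.51 (adjusted p = 0.39), ahead of Ubqln1, a shuttle for ubiquitinated proteins, at -0.37 (adjusted p = 0.52). Rad23b, another shuttle, was at -0.34 against control (adjusted p = 0.22). In Runx1KO against control the lowest p were those of Ubqln4 at -0.39 and Ubqln2 at 0.44, both shuttles of the same family, with adjusted p of 0.81 and 0.85.

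Of 17 genes of MHC class I antigen processing, which use the peptides the proteasome makes, 15 were measured, and 0 had an unadjusted p under 0.05 in any of the 3 comparisons, where 7.22% to 15.5% of all genes did. The lowest p in Runx1KO were those of Tapbp, the bridge between the transporter and class I molecules, at 0.23 (SE 0.11, limma adjusted p = 0.71), and of its relative Tapbpl at 0.39 (adjusted p = 0.77). In RUNX1(41-214) against control they were those of Irf1, a transcription factor of interferon responses and of immunoproteasome genes, at -0.28 (SE 0.13, adjusted p = 0.34), and of Tapbp at 0.15 (adjusted p = 0.59). Irf1 read 11.64, 11.39 and 11.32 in control, 11.34, 11.66 and 11.28 in Runx1KO, and 11.21, 11.14 and 11.18 in RUNX1(41-214), below all other arrays. None of Psmb8, Psmb9 and Psmb10 had a mean below control there, and a link of Irf1 to their values was not tested. Against Runx1KO the lowest p were those of Tapbpl at -0.45 (adjusted p = 0.48) and Irf1 at -0.25 (adjusted p = 0.56). The class I heavy chains H2-D1 and H2-K1 and their light chain B2m lay between -0.08 and 0.08 in both comparisons against control.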

How the data were processed

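RNA of sorted KSL cells was measured on 9 Affymetrix arrays. Per the labels, biotinylated cRNA came from the two-cycle procedure, which amplifies small samples from the 3′ end, so that probe sets differ in how they respond to RNA quality. The deposited values are a linear signal intensity per probe set (22690 of them); how the authors summarised and scaled it is not given in the sources used here. From these, 64 control probe sets were set aside, log2(signal + 16) was quantile normalized because array medians spanned 0.211 (limit 0.2), and each gene took its brightest probe set with 1 annotated symbol. The offset understates changes of dim genes. Symbols were matched to the RefSeq gene table (GRCm38.p6).

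The 3 groups were compared in 1 linear model of 9 arrays (R 4.3.3, limma 3.58.1 with lmFit and eBayes, variance trend, 6 residual degrees of freedom, two-sided), with Benjamini-Hochberg adjustment over 12393 genes and a threshold of 0.05. Precision is set by having 3 arrays a group. The scripted fit was tested on simulated data. The members, the lists and the rule for named genes were chosen with earlier results of these data known. The rule names each gene past the threshold, the catalytic subunits and activators, and the largest rise and fall per class against control. From each further list it names those passed, or the 2 with the lowest p, and always Tap1 and Tap2. Other genes, such as Psmd14, Psmc4, the chaperones of the base and Nfe2l1, were named after their values were seen. Since the labels do not say whether a biological replicate is 1 animal or a pool, p-values measure the spread between these samples. That spread may differ from the spread between animals. Alternatives were other offsets, no quantile normalization, no dim genes, mean of probe sets, array weights, no variance trend, a replicate block, only the 6 arrays compared, and each array or both arrays of high Gapdh ratio left out.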

Additional observations from a re-analysis of the deposited data

How the results depend on the processing

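Values of 66 fold changes of named proteasome genes were recomputed under 20 alternatives each: of 1320 values, 1314 stayed on their side of the threshold and either kept their sign or changed by less than the SD between replicates, 3 passed that had not before (Psmb1 and Psmc2 in RUNX1(41-214) against control, given above), and 3 moved by more than that SD. The sign turned in 84 of the 1320 values, those of 32 of the 66 fold changes, and in 0 of the 20 values of the fold change that had passed (Psma8 in RUNX1(41-214) against control). Several alternatives keep a fold change as it is by design and can move only its p, so these counts overstate how stable the values are. They are no dim genes, no variance trend, the replicate block, only the 6 arrays compared, and leaving out an array of the group not compared. The number of proteasome genes past the threshold in RUNX1(41-214) against control was 1, and 2 with array weights (Psma8 and Psmc2), where calls over all genes rose from 531 to 766. It was 2 without both arrays of high Gapdh ratio (Psma8 and Psmb1), and 1 to 2 leaving out each array in turn. In the F test it was 0 to 1 over these, with 0 without control replicate 1 or 3, Runx1KO replicate 1 or 2, or RUNX1(41-214) replicate 1 or 2, where the fit has fewer arrays. Over all genes, Runx1KO against control gave 43 calls, 69 without dim genes (fewer genes tested), 9 with only the 6 arrays compared, and 14 to 51 with an array left out. RUNX1(41-214) against control gave 531 calls, 766 with array weights and 295 to 613 with an array left out. RUNX1(41-214) against Runx1KO gave 168, 371 with array weights and 74 to 208 with an array left out. The F test gave 421, 682 with array weights and 209 to 450 with an array left out. For array weights and the 6 arrays the cause was not tested. The share of calls that were higher in RUNX1(41-214) against control was 40.3%, and 52.1% without quantile normalization. The difference of Psmb10 over Psmb7 in Runx1KO against control was 0.03, and 0.44 without both arrays of high Gapdh ratio. With the replicate number as a replicate block, the calls were 48, 539 and 171 over all genes and 0, 1 and 0 among proteasome genes, and 438 and 1 in the F test; deviations of same-numbered arrays correlated at -0.17 to 0.42 and those of other arrays at -0.47 to 0.26, so not every same-numbered pair correlated above 0.1, and the block was kept as an alternative; between control and Runx1KO the same-numbered pairs were at 0.03, 0.41 and 0.42. Array signals have no depth in counts.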
